A study of Rattus norvegicus with 9 samples.

Results

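The contrast described here sets kidneys of rats given rapamycin and subjected to ischaemia-reperfusion (I/R) against kidneys with the same injury and no drug. It takes 6 of the 9 libraries of the series, the 3 I/R + rapamycin libraries and the 3 I/R libraries, chosen by the library names and treatment labels alone, and every gene of the count table that had enough reads. The 3 remaining libraries, from sham-operated rats, entered the fit to share the estimate of the spread. They thereby also entered the filter on low counts, the scaling and the removal of the length trend described below. Their values stand beside the results as the uninjured level. All rats were wild-type Sprague-Dawley animals, and per the growth protocol they were 6 to 8 weeks old. Both I/R groups had 45 min of ischaemia, which the series design describes as a clamp on the artery of the left kidney. The labels conflict on the drug: the design text gives males, intraperitoneal dosing and 1 mg/kg/day in 3 groups, while the protocol attached to the samples gives males and females, gavage, 1 or 2 mg/kg/day and 6 groups that differ in reperfusion (3 or 7 days), with the first dose 1 day before surgery. Sex of the rats and dose, route and reperfusion time of the sequenced kidneys are therefore not settled here, and they could differ from library to library. The replicates are numbered but nothing says that they are separate animals, so the p-values measure only the spread between these samples, which may be technical.

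Rapamycin binds the small protein FKBP12, and the complex blocks mTOR complex 1 (mTORC1), a kinase that reads amino acids, energy and growth factors. Active mTORC1 phosphorylates S6 kinase and the 4E-BP repressors, which raises translation of messenger RNAs for ribosomal proteins, and it holds back autophagy by phosphorylating ULK1 and TFEB. In the kidney the pathway is known for its part in growth and regrowth of tubules after injury and in podocyte size control. Most of this control acts on protein phosphorylation, which RNA sequencing does not read.

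The 6 libraries held 44582251 to 55800323 counted reads, and 17335 genes were tested, of which 11232 have a symbol in the deposited FPKM table (fragments per kilobase of transcript, scaled to library size). The labels name kidney tissue and also a tubular cell as the source. Markers of many kidney cell types were present in all 9 libraries, per length: the proximal tubule phosphate transporter Slc34a1 at 951 to 1390 FPKM, the thick limb protein gene Umod at 448 to 922 FPKM, the water channel gene Aqp2 of the collecting duct at 96.1 to 174 FPKM, the endothelial gene Pecam1 at 21.1 to 27.0 FPKM and the macrophage gene C1qa at 6.82 to 10.999 FPKM. The libraries thus carried RNA of vascular and immune cells as well as tubules. Of the neutrophil and lymphocyte markers S100a8, S100a9, Cd3e, Cd79a and Ptprc, none has a symbol in the table. On the first principal component of all libraries (26.2% of the variance) I/R 1 and sham 3 lay at one end, at 51.2 and 66.1, and I/R + rapamycin 1 and 2 at the other, at -62.2 and -40.9, while I/R 2 and 3, at -2.08 and -15.4, lay close to I/R + rapamycin 3 at -8.67. I/R 1 and sham 3 therefore stand apart from their groups, and counts are given with and without them. I/R + rapamycin 3 also lay apart from I/R + rapamycin 1 and 2 on this component.

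With rapamycin 22 genes changed, 19 of them lower, and the lowest p-values with a symbol included a pair of genes for medium-chain acyl-CoA synthetases, mitochondrial enzymes that activate medium-chain fatty acids for oxidation. Acsm3 was at 119.7, 134 and 175 CPM (read counts scaled to library size) with rapamycin. The I/R values were 449, 508 and 363 CPM and the sham values 144, 186 and 165 CPM, each in the order of libraries 1 to 3. Acsm5 was at 6.86, 6.87 and 7.12 CPM with rapamycin, 17.1, 25.8 and 36.3 CPM without and 7.25, 8.32 and 9.56 CPM in sham. Every treated library lay below every I/R library for both genes, as in 24.6% of all genes in either direction. For Acsm3 the treated range overlapped the sham one, and for Acsm5 it lay just below it. Values given with an SE are log2 fold changes (log2FC) of I/R + rapamycin over I/R, here -1.62 (SE 0.17, adjusted p = 0.0285) for Acsm3 and -1.93 (SE 0.23, adjusted p = 0.0339) for Acsm5, from edgeR's quasi-likelihood test with Benjamini-Hochberg adjustment. A call here is an adjusted p under 0.05, which 0.127% of the 17335 genes reached (0.0173% higher and 0.11% lower). Of the 4 tested IDs of this family, a further one, listed as Acsm2, was at 32.9, 36.1 and 28.5 CPM with rapamycin and 45.6, 64.1 and 59.8 CPM in I/R (log2FC -0.80, SE 0.15, adjusted p = 0.0879). The other Acsm2 ID was at 1468, 1678 and 1598 CPM against 1335, 1475 and 1204 CPM, with the groups overlapping (log2FC 0.24, SE 0.15, adjusted p = 0.469). The 2 IDs share a symbol, and if their sequences are alike reads can be split between them, so their values are uncertain.

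The 300-base RefSeq promoter windows of the called Acsm pair and of the called glutathione transferase Gsta2 (250 bases before to 50 after the annotated start, build GRCr8) are printed because these are the called genes of fatty acid and glutathione metabolism, with capitals marking AGGTCA, the core that many nuclear receptors bind, on either strand (TGACCT where it lies on the other strand).
Acsm3, chr1:183564402-183564701, + strand: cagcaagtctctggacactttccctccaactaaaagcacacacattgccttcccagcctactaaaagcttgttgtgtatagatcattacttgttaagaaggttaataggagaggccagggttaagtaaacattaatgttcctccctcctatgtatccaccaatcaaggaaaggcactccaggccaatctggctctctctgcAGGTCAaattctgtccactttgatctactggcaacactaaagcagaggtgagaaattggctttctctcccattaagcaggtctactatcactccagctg
Acsm5, chr1:183302259-183302558, + strand: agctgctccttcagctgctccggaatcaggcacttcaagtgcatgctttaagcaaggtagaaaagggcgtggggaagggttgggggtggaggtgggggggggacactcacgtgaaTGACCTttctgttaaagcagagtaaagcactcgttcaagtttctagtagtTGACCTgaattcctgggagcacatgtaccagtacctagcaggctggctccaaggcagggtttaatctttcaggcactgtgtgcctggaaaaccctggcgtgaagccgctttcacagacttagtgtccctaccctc
Gsta2, chr8:88077043-88077342, - strand: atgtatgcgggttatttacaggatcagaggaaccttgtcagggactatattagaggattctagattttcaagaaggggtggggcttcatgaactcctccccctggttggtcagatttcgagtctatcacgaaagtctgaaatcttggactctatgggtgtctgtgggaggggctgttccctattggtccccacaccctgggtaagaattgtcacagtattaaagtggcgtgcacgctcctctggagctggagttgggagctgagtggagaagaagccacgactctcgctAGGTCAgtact
The Acsm3 window holds 1 match 49 bases before the start, the Acsm5 window holds matches 85 and 135 bases before it on the opposite strand, and the Gsta2 window holds 1 match 40 bases after it. Over all 33469 promoter windows of that length 16.2% held the motif, and of the 14 windows of called genes with a symbol 5 did (35.7%). Of 5 windows of the Acsm family 2 held it (40%), and the window of Acsm2, not printed here, held none. A match describes letters in a window and is no evidence that a receptor binds there.

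The other called falls included 2 of 35 tested endothelial genes, Gja1 and Esm1, and 1 of 42 fibrosis genes, Crispld2. Gja1, the connexin 43 gene of gap junctions, was at 11.8, 14.4 and 14.7 CPM with rapamycin and 33.6, 28.4 and 24.3 CPM in I/R (log2FC -1.08, SE 0.15, adjusted p = 0.0379). Esm1, an endothelial proteoglycan gene, was at 9.26, 7.67 and 9.82 CPM against 21.05, 18.5 and 15.7 CPM (log2FC -1.05, SE 0.14, adjusted p = 0.0379). Crispld2, which encodes a secreted protein, was at 6.98, 7.80 and 10.05 CPM against 19.1, 16.3 and 18.5 CPM (log2FC -1.12, SE 0.17, adjusted p = 0.043). In all 3 the groups did not overlap, and the sham libraries, at 21.4, 23.2 and 27.1 CPM for Gja1, 22.9, 26.97 and 23.1 CPM for Esm1 and 13.8, 12.3 and 17.2 CPM for Crispld2, lay above every treated library. Atl3, an endoplasmic reticulum shaping GTPase gene, was at 18.1, 21.8 and 22.6 CPM against 35.4, 31.8 and 36.4 CPM (log2FC -0.73, SE 0.11, adjusted p = 0.0408). Plcxd2 was at 10.7, 13.2 and 11.02 CPM against 20.8, 19.3 and 24.6 CPM (log2FC -0.89, SE 0.13, adjusted p = 0.0408). Both also had sham values above the treated ones, 31.2, 33.2 and 31.6 CPM for Atl3 and 16.3, 15.2 and 17.3 CPM for Plcxd2. In bulk RNA of this kind, fewer cells of a type and less RNA per cell cannot be told apart.

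A pair of regulators of metabolism fell as well. Trib1, a pseudokinase gene whose product steers the degradation of transcription factors of the C/EBP family, was at 43.8, 47.5 and 46.9 CPM with rapamycin and 85.2, 83.4 and 71.2 CPM in I/R (log2FC -0.80, SE 0.11, adjusted p = 0.0372). Esrrg, the gene of the orphan nuclear receptor ERR gamma that drives mitochondrial genes in tubule cells, was at 28.3, 31.8 and 35.4 CPM against 52.6, 46.5 and 53.6 CPM (log2FC -0.68, SE 0.10, adjusted p = 0.0408). For both, the sham libraries were near the untreated I/R level, at 69.8, 83.5 and 66.8 CPM for Trib1 and 52.4, 47.96 and 48.997 CPM for Esrrg. Class I histocompatibility genes were the last called group with symbols: RT1-T24-4 was at 36.3, 27.6 and 30.9 CPM against 53.5, 60.2 and 65.7 CPM (log2FC -0.92, SE 0.11, adjusted p = 0.0339). RT1-S3 was at 47.4, 44.8 and 44.6 CPM against 63.1, 71.4 and 77.2 CPM (log2FC -0.63, SE 0.094, adjusted p = 0.0408). Genes of this family share long stretches of sequence, and their counts are uncertain for that reason.

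The called rises were 3. Gsta2, an alpha-class glutathione S-transferase that conjugates lipid peroxidation products to glutathione, was at 1458, 1525 and 1137 CPM with rapamycin, 676, 743 and 551 CPM in I/R and 835, 1141 and 965 CPM in sham, so that all 3 treated libraries were above all the others except sham 2, which lay just above I/R + rapamycin 3 (log2FC 1.06, SE 0.16, adjusted p = 0.0466). LOC681544 was called for 1 of its 2 IDs, at 20.2, 23.2 and 13.9 CPM against 6.08, 5.48 and 2.98 CPM (log2FC 1.98, SE 0.30, adjusted p = 0.0486). Its other ID was at 34.9, 36.5 and 27.1 CPM against 10.1, 8.69 and 5.41 CPM and was fitted at 2.03 (SE 0.34, adjusted p = 0.0818). The authors' deposited table describes both IDs as similar to histidine-rich glycoprotein. LOC103690996 was at 21.5, 21.1 and 18.2 CPM against 9.76, 10.7 and 11.7 CPM (log2FC 0.92, SE 0.13, adjusted p = 0.0408). The authors' deposited table places LOC103690996 in the KEGG pathway Ribosome. Alpha-class transferases and the copies of LOC681544 resemble each other closely, so reads may have moved between them.

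**Figure D1:**
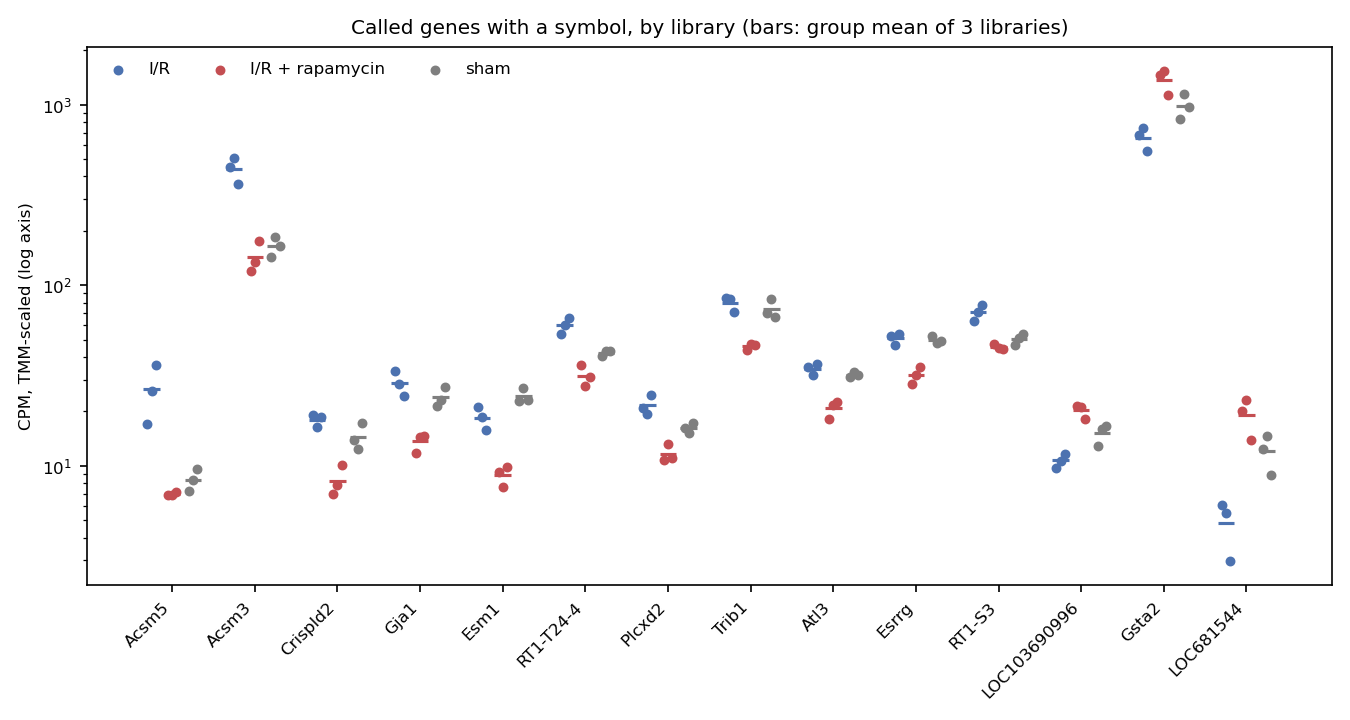
CPM (log axis) of the 14 called genes with a symbol in each library, blue for I/R, red for I/R + rapamycin and grey for sham, with bars at the mean of 3 libraries and genes ordered by log2 fold change. The red points lie below the blue ones for 11 genes and above them for LOC103690996, Gsta2 and LOC681544; Acsm3 spans 119.7 to 508 CPM.

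The remaining 8 called genes have no symbol in the deposited table and fell. That table holds only genes at 1 FPKM or more in 8 or 9 libraries, so an ID close to absent in a whole group could hardly be in it. One of them, ENSRNOG00000070622, was at 0.739, 0.495 and 0.555 CPM with rapamycin, 70.4, 35.9 and 29.7 CPM in I/R and 39.7, 31.3 and 73.3 CPM in sham (log2FC -6.26, SE 0.54, adjusted p = 0.0339). ENSRNOG00000063905 was at 0.208, 0 and 0.249 CPM with rapamycin against 20.6, 11.4 and 9.46 CPM in I/R (log2FC -6.51, SE 0.71, adjusted p = 0.0372). In both the rapamycin libraries held only a trace of the level that every untreated library reached. For 2 more of the 8 no read was counted in any rapamycin library, which puts their level at least 71.4-fold and 55.6-fold lower than in I/R when 3 reads over the rapamycin group are taken as the floor. Not all of the 8 were close to absent. ENSRNOG00000021904 had a mean of 6.77 CPM with rapamycin and 15.8 CPM in I/R (log2FC -1.22, SE 0.16, adjusted p = 0.0372). ENSRNOG00000011313 had means of 2.75 and 6.06 CPM (log2FC -1.14, SE 0.16, adjusted p = 0.0404). Why these IDs lack a symbol was not tested.

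These calls rested on few libraries. The count was 0 without I/R + rapamycin 1, without I/R + rapamycin 2 and without sham 1. It was 1 without I/R 2, a gene not among the 22, and 3 without I/R 3 or sham 2, all among the 22. Without I/R + rapamycin 3 it was 26, with 12 of the 22 among them. It was 47 without I/R 1 (15 of the 22 among them) and 44 without sham 3 (all 22 among them). Without both it was 128 (44 higher and 84 lower, 21 of the 22 among them). A fit of the 6 compared libraries alone called 6 genes, 3 of the 22 among them. DESeq2 called 678 genes, 206 higher and 472 lower, including all 22, and every one of the 22 kept its direction in each of these fits. With the trend of fold changes with transcript length removed, as described below, 11 of the 14 called genes with a symbol passed the test and 3 did not: LOC103690996 was at 0.65 (adjusted p = 0.0986), Plcxd2 at -0.73 (adjusted p = 0.0662) and LOC681544 at 1.82 (adjusted p = 0.0563). The 8 without a symbol have no length and could not be fitted there.

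**Figure D2:**
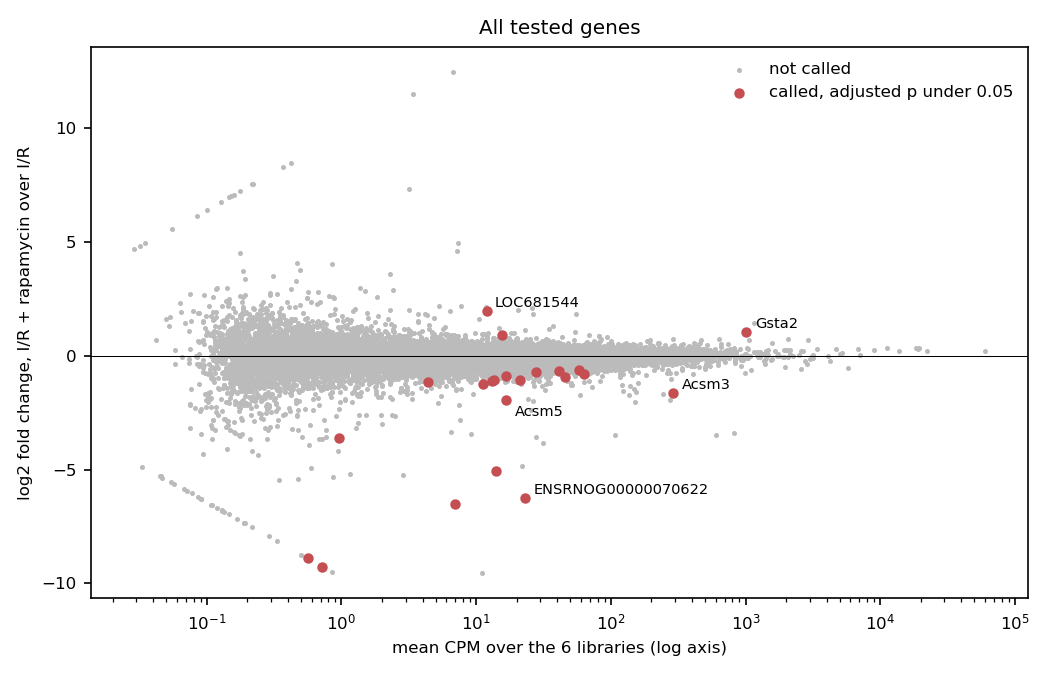
Log2 fold change of I/R + rapamycin over I/R for all 17335 tested genes against mean CPM over the 6 libraries (log axis); red points are the 22 called genes. The diagonal lines of grey points at the left are genes with no read in one of the groups, whose fitted fold change is not bounded by the data.

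Beyond the called genes, 16.3% of all genes had an unadjusted p under 0.05, 7.11% on the higher side and 9.14% on the lower side, and in 24.6% the 3 treated values did not overlap the 3 untreated ones. These shares are the background for the gene lists below, in which a member with an unadjusted p under 0.05 is not a called change. The median log2 fold change over all genes was 0.01. Fold changes followed transcript length, taken as counts over FPKM: from the shortest to the longest of 10 equal bins of 11232 genes the median went from 0.24 to -0.19 (Spearman correlation across genes -0.483). The trend was not uniform among libraries. The median of the shortest bin minus that of the longest was 0.36, 0.17 and 0.05 in I/R + rapamycin 1, 2 and 3 and -0.38, -0.05 and -0.17 in I/R 1, 2 and 3. Lists of short or long genes move with this trend, so the counts and median of each list are given also after its removal, for the 11232 genes with a length, where 6.36% of genes had an unadjusted p under 0.05 on the higher side and 8.18% on the lower.

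**Figure D3:**
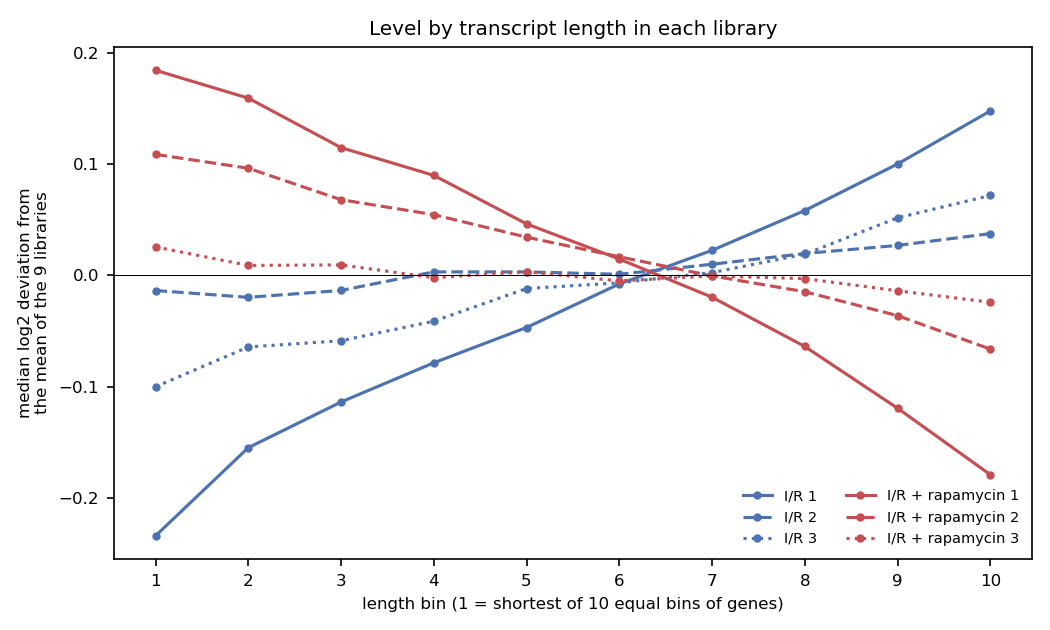
Median log2 deviation from the mean of the 9 libraries for 10 equal bins of 11232 genes by implied transcript length, one line per library (blue I/R, red I/R + rapamycin). I/R + rapamycin 1 and I/R 1 slope most, in opposite directions, with shortest-minus-longest values of 0.36 and -0.38, and I/R + rapamycin 3 and I/R 2 are the flattest at 0.05 and -0.05.

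The genes of the drug's own pathway showed no called change. Of 58 tested genes for mTOR complexes and their regulators none was called, 8 had an unadjusted p under 0.05 on the higher side and 13 on the lower, and the median was 0.01 with or without the length trend (5 higher and 9 lower with it removed). Over all genes 0.127% were called, and 7.11% and 9.14% had such a p on the higher and lower side. In 29 of the 58 the groups did not overlap, against 24.6% of all genes. Mtor was at 59.98, 64.6 and 67.3 CPM with rapamycin and 76.5, 76.01 and 69.2 CPM in I/R, so the treated libraries lay below by less than the test could call (log2FC -0.21, SE 0.095, adjusted p = 0.311). Rptor, which encodes the mTORC1 scaffold RAPTOR, was at 27.5, 27.9 and 27.6 CPM against 34.3, 33.6 and 33.3 CPM without overlap (log2FC -0.29, SE 0.12, adjusted p = 0.28). Fkbp1a, the gene of FKBP12, was at 104, 96.1 and 99.6 CPM against 88.6, 99.5 and 78.1 CPM with the groups overlapping (log2FC 0.17, SE 0.10, adjusted p = 0.422). Rictor, the scaffold of mTORC2, is not analysed here by name. The genes of the tuberous sclerosis proteins, which form a brake on mTORC1, were at -0.41 (SE 0.17, adjusted p = 0.267) for Tsc1 and -0.25 (SE 0.11, adjusted p = 0.311) for Tsc2.

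Upstream of mTOR, the smallest p-values of the list belonged to receptors and kinases of the insulin pathway. Pdpk1, the kinase that activates AKT and S6 kinase, was at 10.9, 13.5 and 13.7 CPM with rapamycin and 21.6, 20.4 and 20.5 CPM in I/R (log2FC -0.72, SE 0.12, adjusted p = 0.059). The insulin receptor gene Insr was at 17.8, 27.7 and 29.3 CPM against 42.96, 45.3 and 49.7 CPM (log2FC -0.88, SE 0.18, adjusted p = 0.0949). The IGF-1 receptor gene Igf1r was at 10.05, 14.2 and 14.4 CPM against 24.7, 21.5 and 22.7 CPM (log2FC -0.84, SE 0.17, adjusted p = 0.0943). All 3 were lower in every treated library than in every I/R library, and none passed the test. Prkaa2, a catalytic subunit gene of the energy sensor AMPK, was at 16.1, 25.6 and 26.5 CPM against 42.2, 34.4 and 36.3 CPM (log2FC -0.73, SE 0.20, adjusted p = 0.149). In the other direction stood Fkbp5, which encodes an FKBP12 relative that binds steroid receptor complexes, at 129.6, 143 and 95.4 CPM against 68.4, 88.2 and 74.5 CPM (log2FC 0.67, SE 0.16, adjusted p = 0.126). With the length trend removed Pdpk1 was at -0.83, Insr at -0.77, Igf1r at -0.76 and Fkbp5 at 0.73. The amino acid sensing Ragulator subunits Lamtor1, Lamtor2 and Lamtor4 were fitted at 0.40, 0.32 and 0.31.

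**Figure D4:**
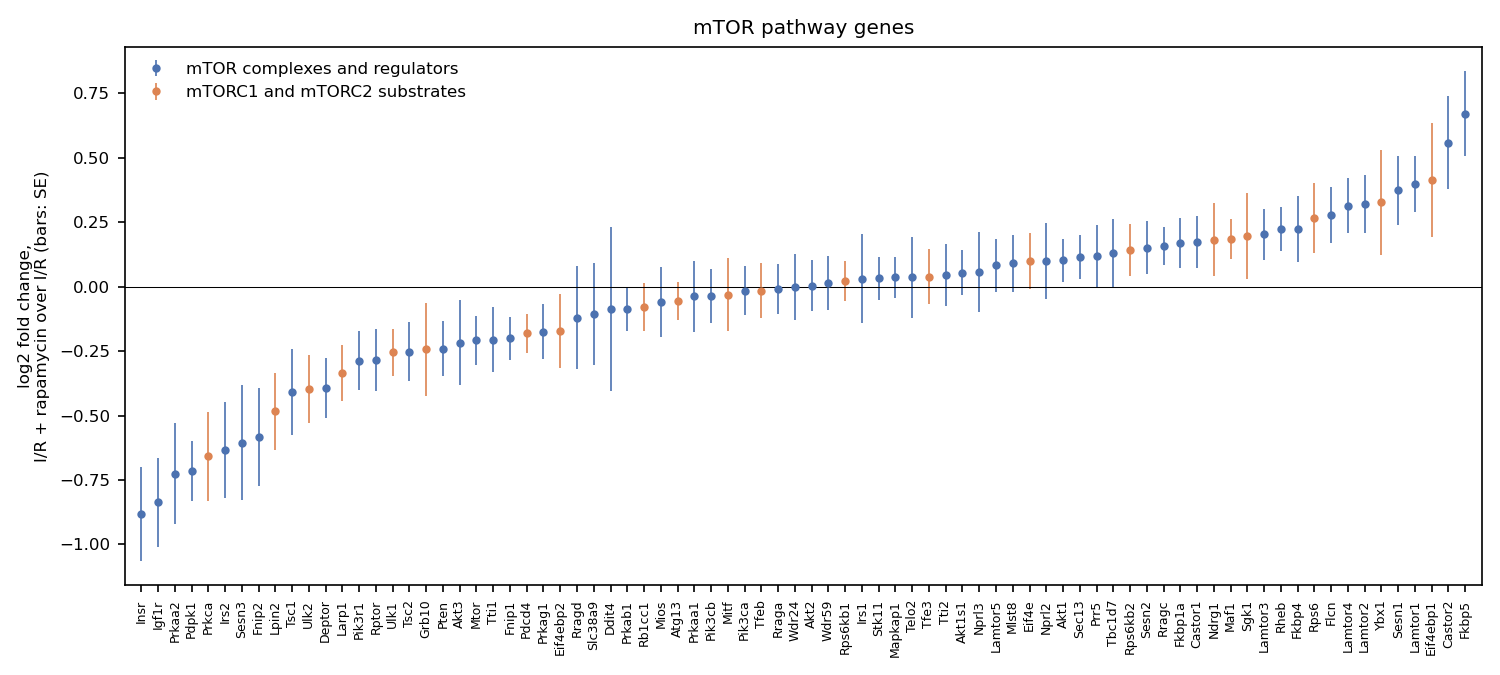
Log2 fold changes with standard errors of the tested mTOR pathway genes, ordered by value: blue for complexes and regulators, orange for substrates. Values run from -0.88 for Insr to 0.67 for Fkbp5, and none of the genes was called.

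Of 22 genes for mTORC1 and mTORC2 substrates none was called, 1 had an unadjusted p under 0.05 on the higher side and 6 on the lower, and the median was -0.02 (0.04 with the length trend removed, none higher and 5 lower). Rps6kb1, the gene of S6 kinase 1, was at 45.6, 46.3 and 50.2 CPM with rapamycin and 48.5, 46.5 and 44.8 CPM in I/R (log2FC 0.02, SE 0.078, adjusted p = 0.916). Eif4ebp1, the gene of 4E-BP1, was at 4.94, 3.12 and 4.08 against 3.22, 2.55 and 3.33 CPM (log2FC 0.42, SE 0.22, adjusted p = 0.383). Both overlapped between groups. Prkca, the gene of protein kinase C alpha, was at 10.97, 14.8 and 12.1 CPM against 21.9, 15.8 and 22.05 CPM (log2FC -0.66, SE 0.17, adjusted p = 0.141). Larp1, whose product binds messenger RNAs with an oligopyrimidine start, was at 49.4, 53.1 and 57.8 CPM against 66.1, 67.9 and 68.3 CPM (log2FC -0.34, SE 0.11, adjusted p = 0.191). Lpin2, a phosphatidate phosphatase gene, was at -0.48 (SE 0.15, adjusted p = 0.178).

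Autophagy and lysosome genes, which TFEB drives when mTORC1 is inactive, had no called member either. Of 50 autophagy genes 6 had an unadjusted p under 0.05 on the higher side and 4 on the lower, with a median of 0.02 (3, 1 and 0.01 with the length trend removed). Map1lc3b, which encodes LC3B of the autophagosome membrane, was at 75.2, 70.9 and 69.4 CPM with rapamycin and 68.4, 74.2 and 62.1 CPM in I/R (log2FC 0.07, SE 0.10, adjusted p = 0.765). Sqstm1, the gene of the cargo receptor p62, was at 309, 335 and 358 CPM against 371, 319.9 and 291 CPM (log2FC 0.03, SE 0.11, adjusted p = 0.927). Both overlapped between groups and changed sign under some settings. Becn1, a subunit of the lipid kinase complex that starts autophagosomes, was at 106, 107 and 109 CPM against 98.6, 94.9 and 97.4 CPM without overlap (log2FC 0.15, SE 0.071, adjusted p = 0.332). The kinase genes Ulk1 and Ulk2, which start autophagy, stood at -0.25 (SE 0.09, adjusted p = 0.224) and -0.40 (SE 0.13, adjusted p = 0.201). The adaptor gene Wdfy3 was at -0.60 (SE 0.16, adjusted p = 0.141). On the higher side stood the protease gene Atg4d at 0.36 (SE 0.093, adjusted p = 0.132). Map1lc3a was at 0.40 (SE 0.15, adjusted p = 0.247). Atg12 was at 0.20 (SE 0.079, adjusted p = 0.252). These RNA levels are no measure of autophagic flux.

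Among 55 lysosome and proton pump genes 3 had an unadjusted p under 0.05 in each direction and the median was -0.01 (2 higher, 3 lower and -0.05 with the length trend removed). Tfeb itself was at 28.9, 26.7 and 24.7 CPM with rapamycin and 23.7, 29.8 and 27.7 CPM in I/R (log2FC -0.02, SE 0.11, adjusted p = 0.962). The cholesterol carrier gene Npc2 was at 112, 113 and 111 CPM against 84.6, 92.8 and 87.2 CPM (log2FC 0.35, SE 0.089, adjusted p = 0.134). The proton pump subunit gene Atp6v1d was at 166, 165 and 164 CPM against 133, 147 and 131 CPM (log2FC 0.27, SE 0.087, adjusted p = 0.186). The membrane receptor gene Scarb2 was at 18.4, 21.9 and 21.9 CPM against 32.9, 28.2 and 29.5 CPM (log2FC -0.54, SE 0.14, adjusted p = 0.141). The sialidase gene Neu1 was at -0.34 (SE 0.12, adjusted p = 0.223). With all values of the list between -0.54 and 0.38, lysosome genes showed no common direction.

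Messenger RNAs of ribosomal proteins are the classic translational targets of mTORC1, through a run of pyrimidines that begins at their first base. The first 20 bases of 6 members with the smallest p, with the 10 bases before them, show how far the annotated starts carry that run, which is in capitals (RefSeq, GRCr8).
Rpl35a, chr11:81235002-81235031, - strand: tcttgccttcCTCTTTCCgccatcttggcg
Rpl22, chr5:168117951-168117980, + strand: gcgcccccctCCCTTTCTgcctcctctgcc
Rps4x, chrX:71342902-71342931, - strand: cgcgcgcagcCTCCgaccctaatttcttcg
Rpl5, chr14:1995206-1995235, - strand: ctttcccacgTCgcttgcgtcctggaggtg
Rps2, chr10:14251838-14251867, + strand: tctttttcttCgggaaaacacgtgagtctg
Rps15a, chr1:181860265-181860294, - strand: ttttctttccacagtcaccatggtgcgaat
Rpl35a and Rpl22 carry runs of 8 pyrimidines, while the annotated start of Rps15a carries none. A start of C followed by 4 bases that are each C or T was found in 24 of 63 ribosomal protein windows (38.1%) against 2.63% of all 33469 windows. The 21 ribosomal protein genes with such a start had a median log2 fold change of 0.27 and the 34 without it one of 0.26. These medians are as fitted, and the split was not repeated with the length trend removed. The run of pyrimidines is known for its part in translation, which RNA levels do not read, so the split does not bear on that control. The annotated start may differ from the start used in kidney.

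Of 74 tested genes for cytosolic ribosomal proteins 28 had an unadjusted p under 0.05 on the higher side and none on the lower, against 7.11% and 9.14% of all genes, and 73 were fitted above 0 with a median of 0.26. None of the 74 was called. LOC103690996, placed in the Ribosome pathway by the authors' deposited table, is not in this list. Rpl35a was at 49.2, 53.8 and 40.3 CPM with rapamycin and 18.2, 22.7 and 22.9 CPM in I/R for one ID (log2FC 1.17, SE 0.21, adjusted p = 0.0818), and its other ID overlapped (log2FC 0.96, SE 0.73, adjusted p = 0.565). Rps4x was at 340.0, 328 and 285 CPM against 226, 278 and 267 CPM (log2FC 0.31, SE 0.11, adjusted p = 0.225). Rpl5 was at 487, 460.4 and 398 CPM against 326, 382 and 376 CPM (log2FC 0.31, SE 0.11, adjusted p = 0.236); in both, every treated library was above every I/R library. Rps2 was at 0.44 (SE 0.15, adjusted p = 0.212). Rps15a was at 0.41 (SE 0.14, adjusted p = 0.219). Rpl22 was at 0.37 (SE 0.14, adjusted p = 0.24) and 0.25 (SE 0.10, adjusted p = 0.27) for its 2 IDs. Ribosomal protein genes have many processed copies, which makes their counts uncertain. They are also short, with a median implied length of 1192 bases against 3203 for all genes with a length, and with the length trend removed their median was 0.06 and 4 of them, all higher, had an unadjusted p under 0.05.

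The list's median level moved with the libraries as the length trend did: it lay 0.20, 0.12 and -0.09 from the mean of the 9 libraries in I/R + rapamycin 1, 2 and 3 and -0.40, -0.05 and -0.11 in I/R 1, 2 and 3 (log2), so that I/R 1 was lowest and I/R + rapamycin 3 lay between I/R 2 and I/R 3. Without I/R 1 the list median was 0.17. The part of transcript length in the ribosomal values was not tested beyond this. Translation factors had 4 members of 47 with an unadjusted p under 0.05 on the higher side and 3 on the lower (median 0.09, and with the length trend removed 4, none and 0.03), with Eif1b, a start-codon selection factor gene, at 0.50 (SE 0.10, adjusted p = 0.0918). The scaffold gene Eif4g1 was at -0.29 (SE 0.10, adjusted p = 0.194). Ribosome biogenesis and RNA polymerase I genes had 7 and 3 of 57 (median 0.09, and with the trend removed 4, 2 and 0.04), with the largest subunit gene of that polymerase, Polr1a, at -0.41 (SE 0.13, adjusted p = 0.174).

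Mitochondrial genes lay on the same side. Of 70 genes for mitochondrial ribosomal proteins all were fitted above 0 and 37 had an unadjusted p under 0.05, with a median of 0.27, and none was called. Mrpl33, a protein of the large mitochondrial subunit, was at 25.98, 24.4 and 24.2 CPM with rapamycin and 14.1, 15.8 and 18.3 CPM in I/R (log2FC 0.63, SE 0.15, adjusted p = 0.125). Mrpl28 was at 39.2, 37.6 and 33.5 CPM against 21.9, 30.6 and 26.7 CPM (log2FC 0.48, SE 0.14, adjusted p = 0.166). After removal of the length trend the median was 0.10, with 11 members at an unadjusted p under 0.05 on the higher side and none on the lower. Nuclear genes of oxidative phosphorylation had 15 of 75 members with an unadjusted p under 0.05, all higher, and a median of 0.26. With the length trend removed the median was 0.08 and 4 of the 75 lay higher at that level, against 6.36% of all genes with a length. Without I/R 1 the median of this list was 0.15. Among them Atp5me, an ATP synthase subunit gene, was at 38.3, 35.8 and 41.5 CPM against 24.5, 31.3 and 27.1 CPM (log2FC 0.48, SE 0.15, adjusted p = 0.177). Uqcrb, of complex III, was at 110.1, 107 and 96.6 against 74.7, 92.7 and 76.7 CPM (log2FC 0.36, SE 0.12, adjusted p = 0.205). In both genes no treated library was as low as any I/R library. The electron carrier gene Cycs was at 0.38 (SE 0.12, adjusted p = 0.186).

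Of the 13 messenger RNAs encoded by mitochondrial DNA 6 had an unadjusted p under 0.05, all higher, with a median of 0.31, and 2 higher with a median of 0.07 after removal of the length trend. The complex I subunit gene Mt-nd6 was at 3169.7, 2161 and 2412 CPM with rapamycin and 1401, 1809 and 1409 CPM in I/R (log2FC 0.75, SE 0.17, adjusted p = 0.122). Mt-nd3 was at 2110.2, 1864 and 1719 against 1284, 1414 and 1099 CPM (log2FC 0.58, SE 0.16, adjusted p = 0.156). Mt-nd4 was at 13895, 11761 and 12209 against 9989.8, 10402 and 9549.5 CPM (log2FC 0.34, SE 0.12, adjusted p = 0.23). In these 3 the groups did not overlap. Mt-nd6 lies on the other strand from its neighbours, and without a stated strand setting its reads cannot be separated from theirs. The 29 genes of the tricarboxylic acid cycle had 2 members on each side and a median of 0.01 (none higher, 3 lower and -0.0012 with the trend removed), with Idh3b at 0.22 (SE 0.091, adjusted p = 0.271). The pyruvate dehydrogenase kinase gene Pdk4 was at 56.1, 57.2 and 19.1 CPM against 88.7, 106 and 88.8 CPM (log2FC -1.10, SE 0.43, adjusted p = 0.28).

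**Figure D5:**
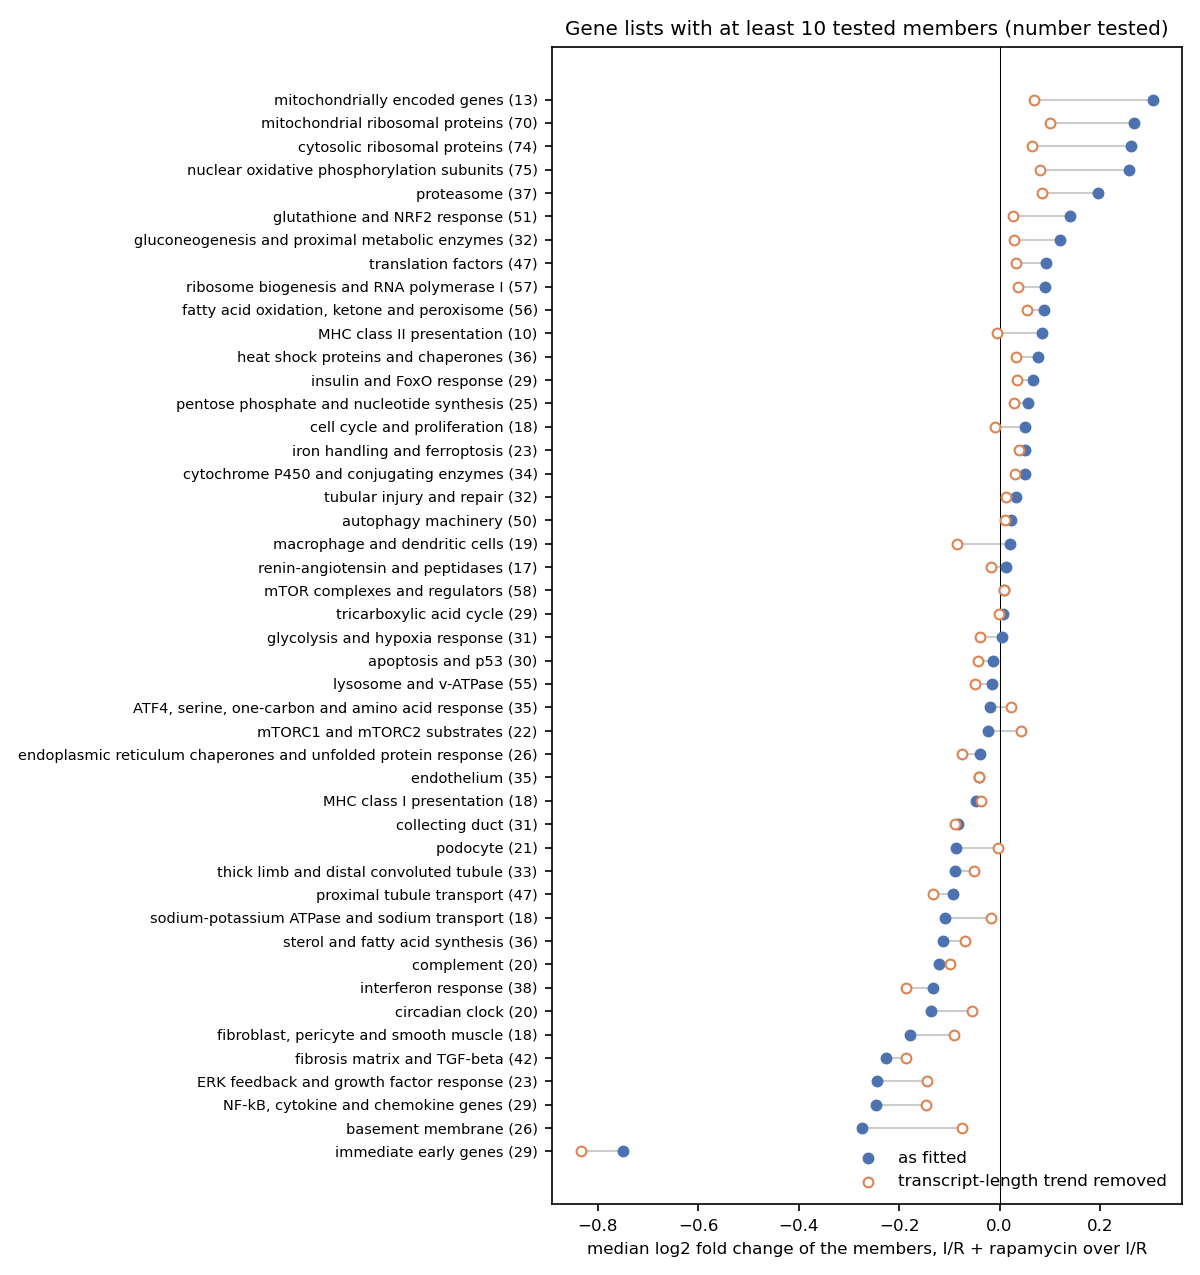
Median log2 fold change of I/R + rapamycin over I/R for the gene lists with at least 10 tested members (number in parentheses), filled points as fitted and open points with the transcript-length trend removed. The ribosomal and mitochondrial lists sit between 0.26 and 0.31 as fitted and between 0.06 and 0.10 with the trend removed, while the immediate early genes sit at -0.75 and -0.83.

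Growth factor signalling genes lay on the lower side. Of 23 genes of the ERK feedback and growth factor response 1 was called (Trib1, above), 9 had an unadjusted p under 0.05 on the lower side and 1 on the higher, and the median was -0.24 (-0.14 with the length trend removed, 9 lower and 2 higher). Dusp6, the ERK phosphatase gene, was at 40.3, 42.9 and 33.1 CPM with rapamycin and 54.4, 46.8 and 60.1 CPM in I/R (log2FC -0.47, SE 0.13, adjusted p = 0.156). Errfi1, an inhibitor of the EGF receptor, was at 839, 1028 and 770.4 CPM against 1258, 1456 and 1292 CPM (log2FC -0.60, SE 0.20, adjusted p = 0.203). Etv5, a transcription factor gene induced by ERK, lay in the other direction at 26.3, 27.9 and 20.2 CPM against 18.6, 17.6 and 17.9 CPM (log2FC 0.46, SE 0.13, adjusted p = 0.156). The receptor gene Fgfr1 was at -0.34 (SE 0.10, adjusted p = 0.172). No group overlap was seen in these 4 genes. In the insulin and FoxO list of 29, which shares Trib1 and Insr with other lists, 5 had an unadjusted p under 0.05 on the higher side and 7 on the lower (median 0.07, and with the length trend removed 5, 6 and 0.03). The insulin receptor substrate gene Irs2 was at -0.63 (SE 0.19, adjusted p = 0.169). The transcription factor genes Foxo1 and Foxo3 were at -0.68 (SE 0.18, adjusted p = 0.141) and -0.70 (SE 0.23, adjusted p = 0.201). G0s2, an inhibitor of fat breakdown, was at 75.5, 76.9 and 90.2 CPM against 57.4, 55.2 and 47.4 CPM (log2FC 0.60, SE 0.11, adjusted p = 0.0789).

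The immediate early genes, transcription factors switched on within minutes by growth factors or stress, had the lowest median of the lists with 10 or more members. Of 29 tested members none was called, 11 had an unadjusted p under 0.05 on the lower side and none on the higher, and the median was -0.75 (-0.83 with the length trend removed, 14 lower). Fos was at 14.1, 14.97 and 24.5 CPM with rapamycin and at 17.5, 259.5 and 316 CPM in I/R (log2FC -3.47, SE 1.30, adjusted p = 0.271). Jun, its partner in the AP-1 factor, was at 104, 107 and 136 CPM against 166, 562 and 582 CPM (log2FC -1.92, SE 0.57, adjusted p = 0.199). Of the I/R libraries, 2 and 3 were high and I/R 1 was within or near the treated range. Sham libraries spread as widely, at 34.4, 199.8 and 512 CPM for Fos and 255, 514 and 813 CPM for Jun. The nuclear receptor gene Nr4a1 was at 84.98, 88.2 and 59.1 CPM against 97.01, 321 and 273 CPM (log2FC -1.57, SE 0.44, adjusted p = 0.177). Fosl2 was at 8.68, 9.30 and 8.09 CPM against 15.2, 17.4 and 19.1 CPM (log2FC -0.99, SE 0.18, adjusted p = 0.0781). Csrnp1 was at 19.4, 16.9 and 14.8 CPM against 22.5, 31.6 and 32.5 CPM (log2FC -0.76, SE 0.16, adjusted p = 0.0943). Fosl2 and Csrnp1 had all treated libraries below all I/R libraries.

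A known switch of these genes is the CArG box, which binds serum response factor. In the RefSeq windows of the list 5 of 25 (20%) held a CArG box (CC, 6 bases that are each A or T, then GG), against 1.64% of all windows, and 6 of 25 (24%) held the full cAMP response element, against 1.83%. The boxes of 3 members, in capitals with 10 bases on either side, are shown: Zfp36 and Klf6, whose levels were low in I/R 1 and high in I/R 2 and 3, and Srf, the gene of the factor itself, whose window holds 2 boxes.
Zfp36, chr1:92799121-92799150, - strand: ccgggccgccCCATAAAAGGcgaaagctcc
Klf6, chr17:69458660-69458689, - strand: aataggaaggCCTTTAATGGagaggctcgg
Srf, chr9:21923985-21924014, + strand: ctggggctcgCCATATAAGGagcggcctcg
Srf, chr9:21924005-21924034, + strand: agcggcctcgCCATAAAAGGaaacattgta
Zfp36, the gene of an RNA-destabilising protein, was at 186, 191 and 205 CPM with rapamycin and 160.0, 394 and 422 CPM in I/R (log2FC -0.75, SE 0.35, adjusted p = 0.335). The transcription factor gene Klf6 was at 41.8, 46.6 and 45.3 CPM against 42.6, 93.8 and 88.4 CPM (log2FC -0.75, SE 0.52, adjusted p = 0.525). In both, I/R 1 was in or below the treated range and I/R 2 and 3 were well above it. Srf, the gene of serum response factor, was at 47.1, 42.2 and 42.3 CPM against 44.5, 48.7 and 50.1 CPM (log2FC -0.12, SE 0.11, adjusted p = 0.618), with the groups overlapping.

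Red blood cell transcripts were high in the same I/R libraries. The globin genes Hba-a1, Hbb and Hba-a3 were at -3.37, -3.49 and -3.34, the 3 of the 5 tested members of the erythrocyte list with an unadjusted p under 0.05, and none was called (adjusted p = 0.257, 0.26 and 0.223). Hba-a1 was at 80.7, 51.5 and 301 CPM with rapamycin and 736, 1891 and 1869 CPM in I/R. The summed level of the 5 members was 299 to 757 CPM with rapamycin, 1456 to 3590 CPM in I/R and 476 to 2804 CPM in sham, with I/R 2, I/R 3 and sham 3 highest. These 3 libraries were also high in Fos, but the levels did not go together throughout: I/R 1, at 1456 CPM of these transcripts, had Fos at 17.5 CPM, and sham 2, at 476 CPM, had Fos at 199.8 CPM. None of the 5 was at 0 in any library, and the part of red cell RNA in the immediate early values was not tested.

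Lipid genes gave a mixed picture around the called Acsm pair. Of 56 genes of fatty acid oxidation, ketone metabolism and peroxisomes 5 had an unadjusted p under 0.05 on the higher side and 1 on the lower (median 0.09, and with the length trend removed 2, 1 and 0.05). The lower one was Ppara, the gene of the receptor that drives fatty acid oxidation, at 10.6, 16.5 and 13.7 CPM with rapamycin, 33.04, 23.3 and 21.5 CPM in I/R and 16.8, 16.6 and 13.3 CPM in sham (log2FC -0.93, SE 0.20, adjusted p = 0.099). The short-chain dehydrogenase gene Acads was at 102, 96.6 and 85.01 CPM against 66.7, 79.5 and 74.9 CPM (log2FC 0.36, SE 0.11, adjusted p = 0.17). Of 36 genes of sterol and fatty acid synthesis 6 lay lower and 2 higher at that level (median -0.11, and with the length trend removed 5, 2 and -0.07). Leaving out I/R 1 put this median at -0.18, leaving out I/R 3 at -0.07 and leaving out I/R + rapamycin 3 at -0.01. Hmgcs1, a gene of cholesterol synthesis, was at -0.35 (SE 0.14, adjusted p = 0.257). The regulator gene Srebf1 was at 35.9, 32.9 and 27.2 CPM against 42.9, 45.9 and 48.004 CPM (log2FC -0.51, SE 0.16, adjusted p = 0.179). The sterol carrier gene Stard4 was at 9.22, 9.91 and 10.2 CPM against 15.5, 15.2 and 13.4 CPM (log2FC -0.59, SE 0.12, adjusted p = 0.0959). In Srebf1 and Stard4 no treated library reached the lowest I/R library. Among the 32 gluconeogenesis and proximal metabolic enzyme genes 2 lay higher and 4 lower at that level (median 0.12, and with the length trend removed 2, 2 and 0.03), with Pck1, the gene of the key enzyme of glucose production in the proximal tubule, at 4155, 4847 and 5168 CPM against 6389.5, 8166 and 5694 CPM (log2FC -0.52, SE 0.19, adjusted p = 0.241).

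Among detoxification genes, 38 of 51 of glutathione metabolism and the NRF2 response were fitted above 0, Gsta2 among them. For cytochrome P450 and conjugating enzymes it was 19 of 34, against 8812 of all 17335 genes. Of 51 genes of glutathione metabolism and the NRF2 response 1 was called, 11 had an unadjusted p under 0.05 on the higher side and 1 on the lower, and the median was 0.14 (0.03 with the length trend removed, 8 higher and 2 lower). Leaving out I/R 1 put the median at 0.08 and leaving out I/R + rapamycin 3 at 0.22. Gsta4 was at 273, 264 and 190.3 CPM with rapamycin and 134, 166 and 155 CPM in I/R (log2FC 0.68, SE 0.14, adjusted p = 0.0993). Gsta5 was at 126, 118 and 70.9 against 51.2, 57.01 and 65.3 CPM (log2FC 0.86, SE 0.19, adjusted p = 0.117). Gsta1 was at 480.0, 526 and 484 against 326, 379 and 297 CPM (log2FC 0.57, SE 0.14, adjusted p = 0.124). None of these 3 overlapped between groups, nor did Gsta2, as in 11.8% of all genes on the higher side. These 4 alpha-class genes were named by p or with their values seen, and reads may have moved between them. Gpx2, a glutathione peroxidase gene, was at 9.70, 7.08 and 8.55 CPM against 4.04, 5.11 and 4.97 CPM, above a sham level of 3.03, 2.86 and 2.99 CPM (log2FC 0.84, SE 0.18, adjusted p = 0.0952). The exporter gene Abcc1 was the one on the lower side, at -0.61 (SE 0.14, adjusted p = 0.121). Of 34 cytochrome P450 and conjugating enzyme genes 4 lay higher and 1 lower (median 0.05, and with the length trend removed 5, 1 and 0.03), with the sulfotransferase gene Sult1a1 at 25.98, 19.9 and 20.8 CPM against 11.6, 14.4 and 14.8 CPM (log2FC 0.71, SE 0.14, adjusted p = 0.0879). Aldh1a1 was at 275, 258 and 264 CPM against 195, 183 and 177 CPM (log2FC 0.52, SE 0.13, adjusted p = 0.125). Cyp24a1, which breaks down vitamin D, was at 59.6, 70.3 and 109 CPM against 388, 123 and 87.4 CPM (log2FC -1.33, SE 0.56, adjusted p = 0.305). For Cyp24a1 the groups overlapped and I/R 1 stood far above the other libraries of the contrast.

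Proteasome genes had 8 of 37 members with an unadjusted p under 0.05 on the higher side and 1 on the lower, a median of 0.20, and no member left at that level with the length trend removed (median 0.08). Without I/R 1 the median was 0.10. The immunoproteasome subunit gene Psmb8 was at 12.2, 10.5 and 14.7 CPM with rapamycin and 8.68, 8.95 and 8.88 CPM in I/R (log2FC 0.50, SE 0.15, adjusted p = 0.169). Psmd7, a lid subunit gene, was at 0.30 (SE 0.10, adjusted p = 0.185).

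Immune genes split. Of 18 class I presentation genes 2 were called lower, 4 had an unadjusted p under 0.05 in each direction, and the median was -0.05 (3 higher, 4 lower and -0.04 with the length trend removed). Against the called RT1-T24-4 and RT1-S3, RT1-A1 was at 24.5, 20.7 and 21.3 CPM with rapamycin and 15.3, 10.96 and 12.5 CPM in I/R (log2FC 0.78, SE 0.14, adjusted p = 0.0757). RT1-T24-3 was at 41.99, 30.8 and 32.4 CPM against 24.6, 16.3 and 19.7 CPM (log2FC 0.79, SE 0.23, adjusted p = 0.165), so members of one family lay on opposite sides, each without overlap between groups. Tap2, a subunit of the peptide transporter, was at 14.1, 10.8 and 12.5 CPM against 19.1, 32.1 and 28.8 CPM (log2FC -1.10, SE 0.20, adjusted p = 0.0879). Of 38 interferon response genes 1 lay higher and 3 lower (median -0.13), and none and 6 with the length trend removed (median -0.19). Without I/R + rapamycin 2 the median was -0.08. Trim25, a ligase gene of the RIG-I pathway, was at 11.2, 14.6 and 13.9 CPM against 19.4, 22.7 and 27.01 CPM (log2FC -0.80, SE 0.15, adjusted p = 0.0879). The GTPase gene Gbp5 was at -0.85 (SE 0.30, adjusted p = 0.223). Of 29 NF-kB, cytokine and chemokine genes 2 lay lower and none higher (median -0.25), and 5 lower and 1 higher with the length trend removed (median -0.15). Without I/R 3 the median was -0.16. The feedback inhibitor gene Tnfaip3 was at 9.65, 12.3 and 9.91 CPM against 12.7, 26.04 and 21.6 CPM (log2FC -0.92, SE 0.35, adjusted p = 0.257). Il34, a ligand of the macrophage receptor CSF1R, was at 23.3, 23.04 and 25.7 CPM against 25.9, 32.03 and 34.8 CPM (log2FC -0.37, SE 0.12, adjusted p = 0.205). No gene of the last pair of lists was called.

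Matrix genes lay on the lower side. Of 42 fibrosis and TGF-beta genes 1 was called (Crispld2, above), 9 had an unadjusted p under 0.05, all lower, 37 were fitted below 0, and the median was -0.23 (-0.19 with the length trend removed, 9 lower). Without I/R + rapamycin 3 the median was -0.35. Col1a1, the main fibrillar collagen gene, was at 35.7, 45.9996 and 66.2 CPM with rapamycin and 80.5, 59.8 and 55.5 CPM in I/R with the groups overlapping (log2FC -0.40, SE 0.49, adjusted p = 0.732). Smad3, which transmits TGF-beta signals, was at 18.8, 24.3 and 23.8 CPM against 35.7, 28.9 and 36.8 CPM (log2FC -0.60, SE 0.14, adjusted p = 0.122). Timp3, an inhibitor of matrix proteases, was at 336, 424 and 378 CPM against 526, 547 and 517 CPM (log2FC -0.48, SE 0.12, adjusted p = 0.125). Col15a1 was at 12.4, 14.04 and 16.6 CPM against 23.2, 21.8 and 23.4 CPM (log2FC -0.67, SE 0.16, adjusted p = 0.124). In these 3 genes every treated library lay below every I/R library. For Col15a1 the sham libraries were lower still, at 5.90, 7.38 and 8.81 CPM.

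All 26 tested basement membrane genes were fitted below 0, 12 with an unadjusted p under 0.05, and the median was -0.27. These are long genes, with a median implied length of 7377 bases, and with the length trend removed the median was -0.07 and 5 members were left at that level. The laminin receptor subunit gene Itga6 was at 140.3, 172 and 183 CPM with rapamycin and 208, 253 and 309 CPM in I/R (log2FC -0.63, SE 0.15, adjusted p = 0.125). The collagen receptor subunit gene Itga1 was at 12.7, 24.9 and 27.4 CPM against 43.03, 49.9 and 55.7 CPM (log2FC -1.19, SE 0.28, adjusted p = 0.13). Col4a3, which encodes a collagen chain of the glomerular filter, was at 49.6, 79.1 and 111 CPM against 175, 135 and 146 CPM (log2FC -0.93, SE 0.27, adjusted p = 0.174). The laminin chain gene Lamc3 was at 51.4, 63.2 and 66.2 CPM against 71.04, 84.9 and 75.3 CPM (log2FC -0.35, SE 0.11, adjusted p = 0.172). None of these 4 overlapped between groups, and with the length trend removed they stood at -0.50, -1.16, -0.82 and -0.22.

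Marker lists of nephron segments and of endothelial, stromal and macrophage cells had medians between -0.18 and 0.02, while the uncalled globin genes above were fitted at -3.49 to -3.34. Proximal tubule transport genes had 5 of 47 members with an unadjusted p under 0.05, all lower, and a median of -0.09, or 5 and -0.13 with the length trend removed. Slc34a1 was at 2706, 3222 and 3299.8 CPM with rapamycin and 3294, 3584 and 2815 CPM in I/R (log2FC -0.07, SE 0.17, adjusted p = 0.874). The lactate transporter gene Slc5a8 was at 68.5, 86.2 and 70.2 CPM against 95.7, 115 and 127 CPM (log2FC -0.58, SE 0.12, adjusted p = 0.0927). The bicarbonate transporter gene Slc4a4 was at 105, 208 and 244 CPM against 369, 396 and 349.6 CPM (log2FC -0.998, SE 0.27, adjusted p = 0.162). The organic cation transporter gene Slc22a2 was at -0.49 (SE 0.16, adjusted p = 0.181). The endocytic receptor genes Lrp2 and Cubn stood at -0.36 (SE 0.14, adjusted p = 0.245) and -0.45 (SE 0.18, adjusted p = 0.267). Thick limb and distal tubule genes had 7 of 33, all lower (median -0.09, and with the length trend removed 6 and -0.05), a share of the list above the 9.14% of all genes, with Umod at 3067, 1997 and 1513 against 1367, 2047 and 2758 CPM (log2FC 0.09, SE 0.28, adjusted p = 0.911). The vitamin D receptor gene Vdr was at 41.02, 51.6 and 54.7 CPM against 116, 76.4 and 66.6 CPM (log2FC -0.81, SE 0.21, adjusted p = 0.141). Klhl3, an adaptor in the control of salt transport, was at -0.74 (SE 0.23, adjusted p = 0.184). Collecting duct genes had 3 higher and 4 lower of 31 (median -0.08, and with the length trend removed 1, 5 and -0.09), with the water channel gene Aqp3 at 141, 108 and 91.3 CPM against 89.8, 70.6 and 73.9 CPM (log2FC 0.54, SE 0.17, adjusted p = 0.186). The receptor gene Kit was at -0.59 (SE 0.17, adjusted p = 0.156).

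Of 35 endothelial genes 2 were called (Esm1 and Gja1), 5 had an unadjusted p under 0.05 on the lower side and 1 on the higher, and the median was -0.04 (4 lower, 1 higher and -0.04 with the length trend removed), against -1.05 and -1.08 for the called pair. The list's summed level was 2825 to 3282 CPM with rapamycin, 3071 to 3839 CPM in I/R and 3166 to 3435 CPM in sham. The VEGF receptor genes Flt1 and Kdr were at -0.30 (SE 0.11, adjusted p = 0.231) and -0.35 (SE 0.16, adjusted p = 0.309). The endothelial lectin gene Clec14a was at 43.7, 36.4 and 43.6 CPM against 50.8, 51.2 and 50.7 CPM (log2FC -0.30, SE 0.10, adjusted p = 0.185). Podocyte genes had 4 of 21, all lower (median -0.09, and 4 and -0.0032 with the length trend removed), and macrophage and dendritic cell genes 1 higher and 2 lower of 19 (median 0.02, and with the length trend removed none, 2 and -0.09). Fibroblast, pericyte and smooth muscle genes had 1 higher and 2 lower of 18 (median -0.18, and with the length trend removed 1, 2 and -0.09). Leaving out I/R 1 put this median at -0.10, leaving out I/R + rapamycin 1 at -0.11 and leaving out I/R + rapamycin 3 at -0.27. The summed level of the macrophage list was 592 to 868 CPM with rapamycin and 674 to 752 CPM in I/R.

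Injury and survival genes showed no called change. Of 32 genes of tubular injury and repair 3 had an unadjusted p under 0.05 on the higher side and 4 on the lower (median 0.03, and with the length trend removed 1, 2 and 0.01). Spp1, the osteopontin gene, was at 567, 211 and 231 CPM with rapamycin and 199, 214 and 674 CPM in I/R, 1 high library in each group (log2FC -0.11, SE 0.57, adjusted p = 0.952). Lcn2, which encodes the injury marker NGAL, was at 4.27, 2.47 and 6.51 CPM against 3.68, 1.82 and 3.06 CPM (log2FC 0.63, SE 0.46, adjusted p = 0.534). Hmox1, the heme oxygenase gene, was at -0.30 (SE 0.52, adjusted p = 0.821), and Havcr1, the gene of the injury marker KIM-1, is not analysed here by name. Itgb6, the epithelial integrin gene that activates TGF-beta, was at 56.7, 72.3 and 57.3 CPM against 79.4, 86.7 and 109.5 CPM without overlap (log2FC -0.56, SE 0.14, adjusted p = 0.126). Of 30 apoptosis and p53 genes 5 lay higher and 4 lower at that level (median -0.01, and with the length trend removed 4, 3 and -0.04). The pro-death gene Bax was at 24.1, 25.5 and 23.7 CPM against 16.8, 22.8 and 20.5 CPM (log2FC 0.29, SE 0.13, adjusted p = 0.295). The pro-survival genes Bcl2 and Mcl1 were at -0.26 (SE 0.16, adjusted p = 0.439) and 0.30 (SE 0.088, adjusted p = 0.167). The caspase inhibitor gene Xiap was at 13.1, 19.9 and 24.1 CPM against 33.1, 31.1 and 31.2 CPM (log2FC -0.74, SE 0.18, adjusted p = 0.126). The cell cycle inhibitor gene Cdkn1a was at -0.66 (SE 0.24, adjusted p = 0.234).

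The authors' table also assigns KEGG pathways to 4853 of the tested genes, which gave 300 pathways with at least 15 members. The highest medians were those of Ribosome (0.27 over 169 genes, 56 with an unadjusted p under 0.05 on the higher side and none on the lower, with 1 called member, LOC103690996), Oxidative phosphorylation (0.25 over 114, 27 and none) and the DNA adduct branch of Chemical carcinogenesis, which takes in conjugating enzymes (0.24 over 31, 9 and none). The lowest medians were those of African trypanosomiasis (-0.32 over 15, none higher and 7 lower) and Malaria (-0.32 over 23, none and 7). With the length trend removed these 2 were at -0.22 and -0.28. In both the lowest member stood at -3.49, the value of Hbb above. Other low medians included those of ECM-receptor interaction (-0.26 over 46, none higher and 13 lower), ABC transporters (-0.27 over 27) and parathyroid hormone synthesis, secretion and action (-0.17 over 78, 1 higher and 29 lower). The mTOR signaling pathway itself had a median of -0.0020 over 113 genes (12 higher and 20 lower) and Autophagy - animal one of 0.01 over 144 (11 and 19). Medians beyond 0.1 in either direction were seen for 63 pathways, and for 14 with the length trend removed, when Ribosome was at 0.07, Oxidative phosphorylation at 0.08, ECM-receptor interaction at -0.10, DNA adducts at 0.14 and parathyroid hormone action at -0.12.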

How the data were processed

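Poly(A) RNA of rat kidney was sequenced in 9 libraries, 3 each from sham, I/R and I/R + rapamycin rats, with paired reads and an RNA integrity minimum of 7, per the labels' protocols. The authors deposited whole-number read counts for 30454 genes and, per the file headers, FPKM values for 11235 of them, all of them reaching 1 FPKM in 8 or 9 libraries. Gene symbols come from that table alone. Named in the submitters' processing notes are HISAT2, cutadapt, StringTie, DESeq2 and Rnor_6.0. The notes used here give no strand setting, counting rule or annotation. Antisense and overlapping genes cannot be told apart. Counts were fitted in R 4.3.3 with edgeR 4.0.16 (TMM factors, default filter on low counts, robust quasi-likelihood test, all 9 libraries, no covariates), with Benjamini-Hochberg adjustment over 17335 genes. CPM values use TMM-scaled library sizes. Library totals ran from 44582251 to 60538627 counts, so library spread rather than counting error limited abundant genes. Libraries of a group differed beyond sampling noise (chi-square per degree of freedom 35.4 to 140.4), and no library was treated as a duplicate.

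The genes and the 51 gene lists were chosen with earlier results of these data known, and lists are described by counts and medians without a set test. Named were the called genes with a symbol (up to 15 in each direction), from each list up to 5 members by smallest p or defining role, and 22 pathway and injury genes in every case; Fos, Jun, Klf6, Srf, Zfp36, Foxo3, Irs2, Gsta1, Kdr and the Lamtor genes were named outside that order, for their role, with their values seen, and Rpl22 as the member with the next smallest p of its list. Fewer than 5 members are named for some lists. Transcript length was taken as counts over FPKM. Promoter and start sequences are RefSeq's for GRCr8 and were searched on both strands, except for the transcript start. The alternatives were DESeq2 1.42.0, other scaling factors, no or a stricter filter, the 6 libraries alone, the replicate number as a block, limma 3.58.1 on log2(FPKM + 1) and log2(FPKM + 0.1), the FPKM-table genes alone, removal of the length trend, other thresholds and each library left out; leaving out I/R 1 with sham 3 was chosen after seeing the data. Tested on simulated data of this contrast (16968 genes), the fit recovered 24% of 50 genes changed 1.5-fold, 75% of 100 changed 2-fold and 98% of 50 changed 4-fold, with 7 of 143 calls false, and called a mean of 0.2 genes in 20 simulations without change.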

Additional observations from a re-analysis of the deposited data

How the results depend on the processing

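The count of 22 called genes (3 higher, 19 lower) was 678 with DESeq2 (206 and 472), 12 with limma on log2(FPKM + 1) (5 and 7), 11 with log2(FPKM + 0.1) (4 and 7), 15 with the length trend removed (4 and 11), 6 in the fit of the 6 libraries alone (1 and 5), 0 at an adjusted p under 0.01 (0 and 0), 135 at one under 0.1 (35 and 100) and 128 without I/R 1 and sham 3 (44 and 84). At the threshold of 0.01, DESeq2 was not counted, and 2817 genes had an unadjusted p under 0.05. Leaving out 1 library at a time gave 0 to 47 calls, 0 to 17 higher and 0 to 36 lower, with 0 without I/R + rapamycin 1, I/R + rapamycin 2 or sham 1, where 1680, 2121 and 2688 genes had an unadjusted p under 0.05. The direction of all 22 was the same in every setting that tested them. Other scaling factors, no filter, the stricter filter and the FPKM-table genes alone left the count within 1.5 times.

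No pairing by replicate number was seen: the correlations of the deviations of same-numbered I/R and I/R + rapamycin libraries were -0.18, 0.02 and -0.21. Those of differently numbered libraries ran from -0.04 to 0.21. Deviations from a mean of 3 libraries depend on each other, so this check cannot exclude a pairing. With the replicate block the count was 1 (1 higher, 0 lower) over 9 libraries and 3 (1 and 2) over 6.

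The mTOR list median of 0.01 was -0.056 and -0.051 with limma on log2(FPKM + 0.1) and log2(FPKM + 1), and the autophagy median of 0.02 was -0.045 and -0.041. With the length trend removed the ribosomal protein median was 0.065 and the mitochondrially encoded one 0.069. Over all 51 lists and settings 1082 medians moved by less than the spread between libraries and 40 by more. That spread is each list's own within groups, so a list with a wide spread can shift far and still count among the 1082. The nuclear oxidative phosphorylation median went from 0.26 to 0.08 with the length trend removed and counted there, with a spread of 0.18. Signs turned only for values near 0 or with a wide spread. Rps6kb1 was at -0.044 and -0.039 with limma and at -0.020 to 0.053 with 1 library left out, Sqstm1 at -0.033 and -0.032 with limma and at -0.051 to 0.13, Tfeb at -0.10 to 0.058, Slc34a1 at -0.16 to 0.013, Umod at -0.23 to 0.36 and Spp1 at -0.71 to 0.70. Map1lc3b was at -0.029 with the length trend removed. Apart from the settings that remove the length trend or samples, the cause was not tested.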

Other observations

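A set of gene IDs was close to absent in the rapamycin libraries. By a rule chosen after seeing the data, with all 3 libraries of a group under 0.1 times the lowest of the other 6, 10 IDs met it for I/R + rapamycin, 5 of them called, against 1 for I/R and 2 for sham, and 0 IDs were the reverse for I/R + rapamycin. None has a symbol in the deposited table, which the make-up of that table nearly fixes in advance. It holds only genes at 1 FPKM or more in 8 or 9 libraries, and these IDs were close to absent in 3. ENSRNOG00000017531, not called, was at 0, 0.0761 and 0 CPM with rapamycin, at 42.3, 12.7 and 11.1 CPM in I/R and at 26.2, 11.7 and 40.5 CPM in sham. ENSRNOG00000008074, called, was at 0.970, 1.07 and 0.421 CPM with rapamycin, at 37.2, 29.1 and 15.8 CPM in I/R and at 14.98, 15.3 and 37.7 CPM in sham.

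Clock genes had 1 of 20 members with an unadjusted p under 0.05 on the higher side and 4 on the lower (3 and 3 with the length trend removed), with the clock gene Per1 at -0.52 on the log2 scale (SE 0.13, adjusted p = 0.125). Of 18 cell cycle genes 3 lay higher and 1 lower (3 and 3 with the trend removed), with the cyclin D kinase gene Cdk4 at 0.40 (SE 0.080, adjusted p = 0.0918). Of 10 class II presentation genes 1 lay higher and 2 lower (1 and 2 with the trend removed), with RT1-Bb at 22.6, 23.3 and 36.7 CPM with rapamycin and 63.8, 98.8 and 106 CPM in I/R. No member of these lists was called.

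The lists not yet described also had no called member. Glycolysis and hypoxia genes had 2 higher and 3 lower of 31 at an unadjusted p under 0.05, iron handling 2 and none of 23, sodium transport 2 and 1 of 18, unfolded protein response 1 and 2 of 26, nucleotide synthesis none and 1 of 25, heat shock proteins none and 1 of 36 and the renin-angiotensin list none and 1 of 17. The 35 genes of the ATF4 and amino acid response, the 20 complement genes and the 3 neutrophil, 4 lymphocyte and 3 adipocyte markers tested had none on either side. With the length trend removed these counts were none and 2, 1 and none, none and 1, 1 and 1, 3 and 1, none and 1 and none on either side, in the order of the first sentence of counts, and 1 higher for the ATF4 list.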
